A study of Saccharomyces cerevisiae with 3 samples.

Results

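The genes described here are 10 budding yeast genes of the mitotic G2/M cluster, CLB1, CLB2, SWI5, CDC20, CDC5, BUD4, ALK1, HST3, MOB1 and KIN3. They were chosen with earlier results of these data known and were looked up by gene symbol in the platform annotation. It held all 10 among 5598 named genes, with 16 of 9202 named probes. In the study behind them, RNA of a gcr1 null mutant of Saccharomyces cerevisiae was hybridised on Agilent arrays together with RNA of the wild type, with Cy5 in channel 1 and Cy3 in channel 2. Both strains grew in YEP with 3% pyruvate, and 1 array was made just before glucose was added (0 min) and 1 each at 20 and 60 min after it. GCR1 encodes an activator of glycolytic gene transcription. The sources used here give neither the strain background nor the kind of null allele nor the amount of glucose.

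Genes of this cluster are transcribed once per cell cycle, as cells pass from G2 into mitosis. Their promoters are bound by the factor Mcm1 together with the forkhead protein Fkh2, and the coactivator Ndd1 switches them on when B-type cyclins and their kinase Cdc28 phosphorylate it. Several products then drive mitosis itself: cyclins Clb1 and Clb2 and the polo kinase Cdc5 act on entry and progression, Cdc20 starts anaphase, Mob1 acts in mitotic exit, and Swi5 turns on genes of the next G1 phase. In an asynchronous culture the level of these mRNAs depends on how many cells are in mitosis and on how much of each mRNA such a cell holds, and bulk RNA cannot tell these apart.

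Each value is a log2 ratio of the 2 channels of an array, so that 1.0 is 2-fold. The numerator is unstated in the labels. Because the null mutant appears in the array titles and comes first in the design text, a ratio of mutant to wild type is the likely direction, and a negative value then means less mRNA in the mutant. GCR1 itself was positive on every array, with means over 2 probes of 0.97 before glucose, 0.91 at 20 min and 1.51 at 60 min. For probes inside a deleted stretch of the gene this would go against that direction, but where the probes lie is unknown here. Before glucose the lowest of 5596 genes was GPM1, a glycolytic gene, at -5.55. That is the side on which less glycolytic mRNA in the mutant would fall if the ratio is mutant to wild type. The direction was not tested. Values are therefore called positive or negative. Since each time point was 1 array, no value has a replicate check or a test. The one measurable error was the disagreement of 2 probes for the same gene within an array, which in 95% of pairs stayed under 0.405 (0 min), 0.482 (20 min) and 0.375 (60 min). It leaves out variation between cultures, labelling reactions and arrays.

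On pyruvate the cluster was close to 0, and after glucose 9 of the 10 genes were well on the negative side. Before glucose 0 of 10 reached 2-fold in either direction, where 2.25% of all genes were 2-fold negative and 1.09% positive. By 20 min 9 of 10 genes had passed 2-fold on the negative side, against 16.5% of all genes, and at 60 min again 9 of 10, against 13.6%. None was 2-fold positive at either time after glucose, against 17.1% and 16.2% of all genes. The median of the 10 genes was 0.08 at 0 min, -2.13 (4.39-fold) at 20 min and -1.79 (3.45-fold) at 60 min, beside medians of 0.07, -0.08 and 0.05 over all genes. MOB1 was the exception at both times. Because the genes were chosen with earlier results known, the shares of all genes give the scale and are not a test.

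**Figure D1:**
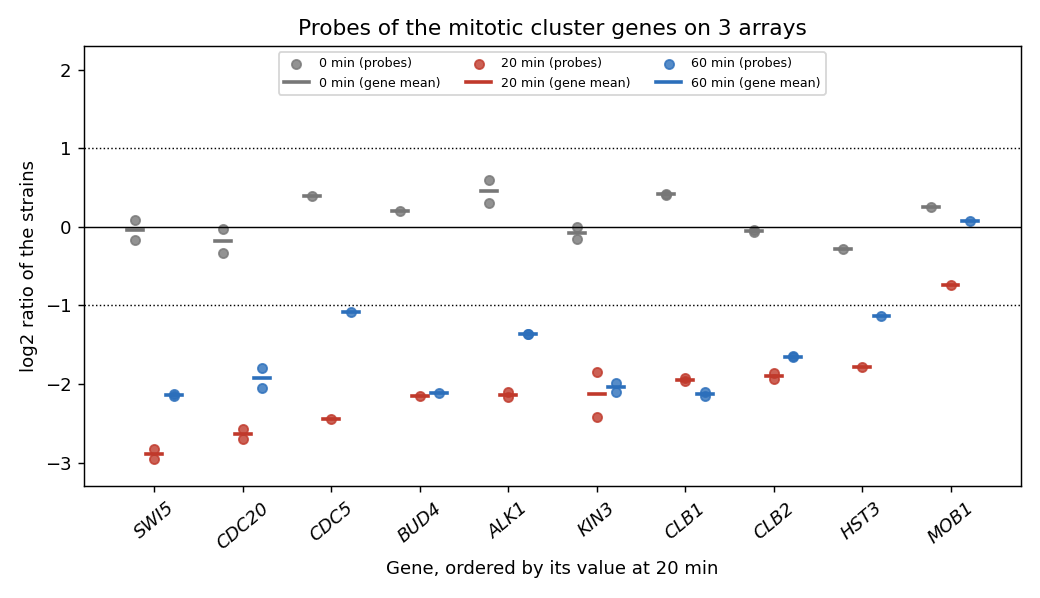
Log2 ratio of the strains for each probe (points) and gene mean (bars) of the 10 genes on the arrays at 0, 20 and 60 min, with dotted lines at 2-fold. All 16 probes lay within 2-fold at 0 min, and all but the MOB1 probe were below -1 at 20 and 60 min.

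The cyclins of mitosis, which bind Cdc28, were compared first. CLB1 (YGR108W) stood at 0.41 before glucose, -1.95 at 20 min and -2.12 at 60 min. CLB2 (YPR119W), its close relative and the main mitotic cyclin, had -0.05, -1.90 and -1.65. At 20 min the pair were alike, with a difference of -0.04, whereas CLB1 stood above CLB2 by 0.47 at 0 min and below it by a difference of -0.47 at 60 min. Both of the latter differences exceed what 95% of probe pairs showed. The individual probes of CLB1 gave 0.42 and 0.41 at 0 min and -2.10 and -2.15 at 60 min, and those of CLB2 gave -0.04 and -0.06, then -1.66 and -1.64, so that the probes of the 2 genes did not overlap on either array. Probes of related genes can bind each other's cRNA, which was not tested.

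The regulators of anaphase and of the following G1 phase had the most negative values at 20 min. SWI5 (YDR146C), a zinc-finger activator that enters the nucleus at the end of mitosis, had a ratio of -0.04 before glucose, -2.89 (7.41-fold) at 20 min and -2.14 at 60 min, and was the 14th lowest of 5597 genes at 20 min. CDC20 (YGL116W), the activator subunit that directs the anaphase-promoting complex (APC/C) to securin, had -0.18, -2.64 and -1.92 and ranked 25th lowest at 20 min. At 20 min their probes gave -2.82 and -2.95 for SWI5 and -2.70 and -2.57 for CDC20. At 60 min the SWI5 probes gave -2.15 and -2.12, and those of CDC20 gave -2.05 and -1.79, the widest member pair on that array. At 0 min the CDC20 probes gave -0.02 and -0.33, the widest pair among the members on that array, and the second of these values lay on a low-signal tie, a ratio of small whole numbers that many dim probes share.

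The 3 kinase genes of the cluster were all 2-fold negative at both times after glucose, with values farther apart at 60 min than at 20 min. CDC5 (YMR001C), the polo-like kinase, read 0.40 before glucose, -2.44 (5.44-fold) at 20 min and -1.08 at 60 min on its single probe. KIN3 (YAR018C), a NIMA-related kinase, had -0.08, -2.13 and -2.04. ALK1 (YGL021W), a haspin-related kinase, had 0.45, -2.14 and -1.37. Thus CDC5 was 46th lowest at 20 min and 668th at 60 min, while KIN3 was 106th and 149th. The KIN3 probes differed most among the members at 20 min, at -1.85 and -2.41, which is wider than 95% of probe pairs, and were closer at 60 min, at -1.98 and -2.10. At 0 min they gave -0.01 and -0.15, and the first of these values lay on a low-signal tie. Both ALK1 probes gave -1.37 at 60 min and they gave 0.59 and 0.31 at 0 min.

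BUD4 and HST3 have roles outside the mitotic machinery and MOB1 acts in mitotic exit, and each of these 3 genes had 1 probe. BUD4 (YJR092W), a bud-neck protein that marks the site of the next bud, read 0.20 before glucose, -2.15 at 20 min and -2.11 at 60 min. HST3 (YOR025W), a histone deacetylase of the Sir2 family, had -0.28, -1.78 and -1.13, and was the lowest member at 0 min and the least negative of the 9 at 20 min. MOB1 (YIL106W), the activating subunit of the kinase Dbf2, had 0.25, -0.74 and 0.07. At 20 min MOB1 stood 1323rd from the lowest of 5597 genes, and at 60 min it was in the middle of the array, at 2840th of 5596. Its gap to the next member was 1.05 at 20 min and 1.15 at 60 min. Those were the only gaps between neighbours in the order of the 10 values that exceeded the 95% probe-pair difference, so the order of the other 9 is not resolved step by step. The MOB1 value at 20 min also lay on such a tie, but 10.8% of named probes did so on that array and such a match can be a coincidence.

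**Figure D2:**
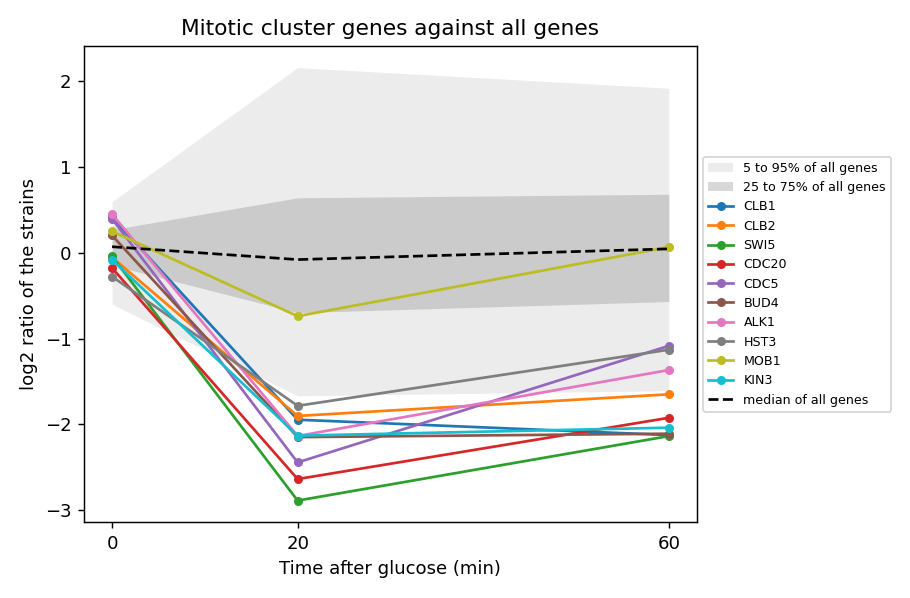
Log2 ratio of the strains against time after glucose for each of the 10 genes (lines), with grey bands for the ranges from 25 to 75% and from 5 to 95% of all genes and a dashed line for their median. At 20 min 9 of the genes lie below the wider band, and MOB1 stays near or inside the inner band.

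Differences between the arrays were then taken for each gene, in which a constant probe or dye bias cancels. From 0 to 20 min the ratio of all 10 genes went in the negative direction, as did that of 53.7% of all genes, by -0.99 for MOB1 and by -1.51 (HST3) to -2.85 (SWI5) for the others. The median difference was -2.36, against -0.09 over all genes, and 9 of 10 differences were at least 2-fold negative, against 16.4% of all genes. SWI5 and CDC5, at -2.85 and -2.84, ranked 16th and 18th lowest of 5595 genes in this difference, and ALK1, at -2.59, ranked 32nd. ALK1, the highest member on pyruvate, ranked 102nd on the 20 min array alone.

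Between 0 and 60 min the median difference was -1.78, with 8 of 10 at least 2-fold negative, against 13.3% of all genes. CLB1 had the largest, at -2.54, followed by BUD4 at -2.31 and SWI5 at -2.10. HST3, at -0.85, and MOB1, at -0.18, were within 2-fold. Both of these sets of differences share the 0 min array.

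From 20 to 60 min the members moved by unequal amounts, from -0.18 (CLB1) to 1.36 (CDC5). The range of the 10 values was alike on the arrays, 2.15 at 20 min and 2.20 at 60 min. Ratios of 9 of 10 genes moved toward or past 0, with a median difference of 0.68, against 0.16 over all genes, of which 41.3% were below 0. All genes are not matched to the members here, as their medians at 20 min were -0.08 and -2.13. Genes far from 0 on 1 array tend to lie nearer to 0 on another. Other genes as negative at 20 min were not compared, so the move is not shown to be particular to the cluster. CDC5 moved by 1.36 and was the only member past 2-fold, against 8.45% of all genes in that direction. MOB1 (0.81), ALK1 (0.77), SWI5 (0.75), CDC20 (0.71) and HST3 (0.65) moved by similar amounts. CLB2 (0.25), KIN3 (0.09), BUD4 (0.04) and CLB1 (-0.18) moved by less than the 95% probe-pair difference of either array. After centring each array on its median, 3 members (KIN3, BUD4 and CLB1) had differences below 0.

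The profile of the cluster was shared with many other genes. A pattern within 2-fold at 0 min and at least 2-fold negative at both 20 and 60 min was found in 9 of the 10 members, all but MOB1, and in 366 of 5593 genes (6.54%) valued on all 3 arrays. By the Euclidean distance of the 3 ratios from the members' median profile, the 8 nearest other genes were PBY1, ALK2, YEH1, FRK1, SAP185, MCM7, CTF18 and ELO3, at distances of 0.15 to 0.28. ALK2 is the relative of ALK1, MCM7 encodes a subunit of the replicative helicase and CTF18 a protein of sister chromatid cohesion, while YEH1 is a sterol ester hydrolase and ELO3 a fatty acid elongase. All of them were nearer to the profile than the closest members, KIN3 (0.30, rank 13) and CLB2 (0.30, rank 14). BUD4 had rank 17, CLB1 49, ALK1 60, CDC20 64, HST3 156, CDC5 158, SWI5 163 and MOB1 1894. Over all genes the arrays at 20 and 60 min correlated at 0.739 and those at 0 and 20 min at 0.305, so genes far from 0 at 20 min tended to be so at 60 min. These are correlations across genes of arrays that compare the same strains.

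**Figure D3:**
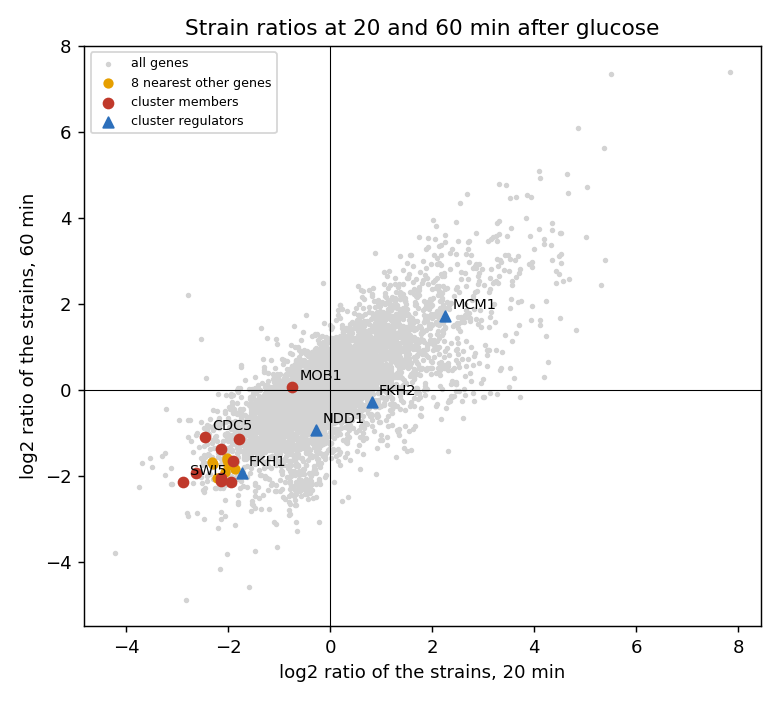
Log2 ratio of the strains at 20 min (horizontal) and 60 min (vertical) for all genes (grey), the 10 cluster members (red), the 8 genes nearest to their median profile (orange) and the 4 regulators of the cluster (blue triangles). Members other than MOB1 sit together at the lower left, and MCM1 lies on the opposite side at 2.26 and 1.72.

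The regulators of the cluster had ratios unlike each other, and most were unlike the genes of the cluster. MCM1, which encodes the factor at these promoters, was positive, with 0.19 before glucose, 2.26 at 20 min and 1.72 at 60 min. FKH1, a forkhead gene, was negative like the members, at 0.04, -1.73 and -1.92. FKH2, the forkhead gene most tied to this cluster, had 0.12, 0.82 and -0.27, and NDD1, the coactivator, had 0.09, -0.28 and -0.92. So of 4 regulators 1 was 2-fold positive and 1 was 2-fold negative at both times after glucose.

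A further 13 lists, which hold the regulators above, other cell cycle genes and sequence relatives and were drawn up with earlier results of these data known, placed the members among the rest of the cycle. Their counts stand beside 16.5% of all genes 2-fold negative and 17.1% positive at 20 min, and 13.6% and 16.2% at 60 min. The lists overlap, so some genes are counted again in another list. Of 13 measured other genes of the CLB2 cluster, 9 were at least 2-fold negative at 20 min and 8 at 60 min, with medians of -1.50 and -1.05. The lowest at 20 min were HOF1 (-2.41), AIM20 (-2.30), CHS2 (-2.16) and KIP2 (-2.0), of which HOF1 and CHS2 act in cytokinesis and septum formation. NUM1 (0.62), MMR1 (0.62), PMP1 (0.16) and SPO12 (-0.12) were not negative beyond 2-fold at 20 min. Like MOB1, these 4 genes were within 2-fold on that array.

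Genes of the APC/C and of mitotic exit were less uniform than the members. Of 15 genes of the APC/C with its activators, securin and separase, 9 were 2-fold negative at 20 min, with a list median of -1.26. The lowest were CDC23 (-2.17), the separase gene ESP1 (-1.84), the activator gene AMA1 (-1.80) and APC1 (-1.67), and the values of CDC23 and AMA1 were on low-signal ties. At 60 min 3 of the 15 were 2-fold negative and 2 positive, APC9 (1.74) and APC11 (1.34), and the list median was -0.33. CDH1, the other mitotic activator beside CDC20, had 0.36, -1.26 and -0.47, and so stood above CDC20 by more than 95% of probe pairs on every array. A list of 12 genes held the mitotic exit network, in which MOB1 acts, and its regulators. Of these the 20 min array put 5 past 2-fold on the negative side (median -0.64) and the 60 min array 3 (median -0.51). At 20 min AMN1 had -2.62, LTE1 -2.03, DBF2 -1.50 and TEM1 -1.23. DBF2, whose kinase Mob1 activates, was below MOB1 by 0.76 at 20 min and by 0.60 at 60 min. DBF20, the relative of DBF2, had 0.33 and 0.67.

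Spindle checkpoint genes had 0 of 6 beyond 2-fold at 20 min (median -0.65), where BUB3 had -0.81, MPS1 -0.70, BUB1 -0.66, MAD3 -0.65, MAD1 0.48 and MAD2 0.68. At 60 min 0 of these 6 were 2-fold negative and 1 was positive, with a median of 0.21. Spindle genes had medians of -0.51 at 20 min, with 4 of 12 2-fold negative and 1 positive, and -0.65 at 60 min, with 2 negative. Their farthest below 0 were KIP1 (-1.70), SLI15 (-1.38), STU2 (-1.24) and KIP3 (-1.18) at 20 min, with KIP1 and SLI15 on low-signal ties. Genes of the bud neck and septins, the neighbourhood of Bud4, had medians of -0.46 at 20 min, with 2 of 8 2-fold negative, and -0.41 at 60 min, with 1 of 8. At 60 min the spindle and bud neck counts were near the 13.6% of all genes. BUD3, which acts with BUD4 in bud site selection, had -1.20 at 20 min and -1.02 at 60 min, and AXL1, another gene of axial budding, had -1.09 and 0.09, whereas the septin genes CDC3 (-0.60), CDC12 (-0.58), SHS1 (-0.33), CDC11 (-0.20) and CDC10 (0.01) were within 2-fold at 20 min.

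**Figure D4:**
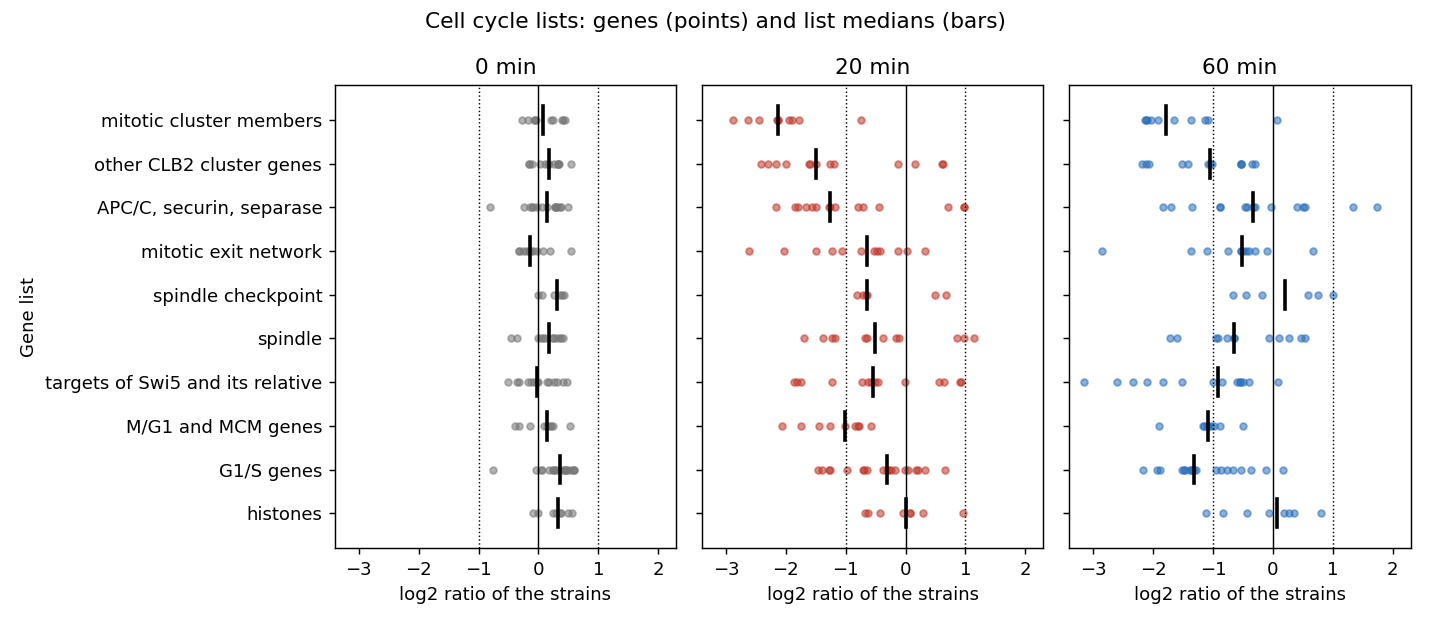
Log2 ratio of the strains for the genes (points) and the median (black bar) of 10 gene lists on the arrays at 0, 20 and 60 min, with dotted lines at 2-fold. The median of the cluster members is the lowest at 20 min, at -2.13, and the G1/S median goes from -0.31 at 20 min to -1.32 at 60 min.

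Other cyclins and CDK genes differed gene by gene. Among 12 genes of CDK control and other cyclins, the arrays at 20 and 60 min each had 2 that were 2-fold negative, with list medians of -0.46 and -0.59, a share close to those of all genes given above. At 60 min 1 was 2-fold positive, the Cdc28-binding gene CKS1 at 1.27. From 20 to 60 min 7 of the 12 went in the negative direction, against 1 of 10 members and 41.3% of all genes. After centring the arrays these counts were 7 of the 12 and 3 of 10 members. The B-type cyclins CLB3 and CLB4, which act between S phase and mitosis, had -1.57 and -1.15 at 20 min, nearer to 0 than CLB1 and CLB2, while the S-phase cyclins CLB5 and CLB6 had 0.21 and 0.33. The kinase gene CDC28 had -0.94 and the G1 cyclin gene CLN3 -0.84 at 20 min. At 60 min CLB6 stood at -1.46, CLB4 at -0.66, CLB5 at -0.37 and CLB3 at -0.31, against -2.12 for CLB1 and -1.65 for CLB2.

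Among genes activated by Swi5 and its relative, 4 of 14 were 2-fold negative at 20 min, when SWI5 itself was at -2.89, and the list median was -0.54. By 60 min the count was 6 of 14 and the list median -0.92. From 20 to 60 min 11 of 14 went in the negative direction, against 41.3% of all genes. Their median difference was -0.97, while SWI5 went by 0.75 in the positive direction. The lowest at 20 min were DSE4, a cell separation gene, at -1.87, the cell wall gene PIR1 at -1.82, the cyclin gene PCL9 at -1.75 and ASH1, a repressor of mating type switching, at -1.22, and at 60 min these had -3.14, -2.61, -2.10 and -0.40. SIC1, the inhibitor of B-type cyclin kinase, had 0.41 before glucose, -0.46 at 20 min and -0.84 at 60 min.

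M/G1 and MCM genes, another group with Mcm1 at its promoters, had medians of -1.01 at 20 min, where 5 of 9 were 2-fold negative, and -1.09 at 60 min, where 6 of 9 were, with MCM7 at -2.07, MCM2 at -1.75, MCM6 at -1.45 and MCM5 at -1.26 at 20 min. G1/S genes had 4 of 19 at 20 min (median -0.31) and 11 of 19 at 60 min (median -1.32), led at 20 min by the replication clamp gene POL30 (-1.46), TOF1 (-1.39), CDC45 (-1.28) and SMC3 (-1.26). From 20 to 60 min 16 of 19 G1/S genes went in the negative direction, against 41.3% of all genes. Their median difference was -0.66, against 0.68 for the cluster members. The signs of these 2 medians, and that of the targets of Swi5, were kept after centring the arrays and after scaling them to equal spread. The members had begun lower at 20 min, with a median of -2.13, and genes matched on that value were not compared. Histone genes had 0 of 8 beyond 2-fold at 20 min (median 0.01) and 1 of 8 2-fold negative at 60 min (median 0.07).

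Sequence relatives of members split as well. In all, 4 of 8 measured relatives were 2-fold negative and 1 was positive at 20 min, and 2 were negative at 60 min, with medians of -0.77 and -0.43. CDH1 and AMA1, both 2-fold negative at 20 min, were also counted with the APC/C, and DBF20 with mitotic exit. ALK2 had -2.03 at 20 min and -1.62 at 60 min, within the 95% probe-pair difference of ALK1 at both times. HST4, the nearest relative of HST3, had 0.41 before glucose, -0.11 at 20 min and 0.45 at 60 min, so that HST3 minus HST4 was -1.67 at 20 min and -1.58 at 60 min. Of the wider family, SIR2, the founding deacetylase, had -2.0 and -2.08, HST1 had -0.28 and 0.20, and HST2 had 1.24 and -0.39.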

How the data were processed

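Total RNA of both strains was labelled with a low-input linear amplification kit, per the labels. The authors' deposited table held 1 log2 ratio per probe and array, for 10807 probes on 3 arrays. Base 2 was read from the gaps between tied values of dim probes. No source used here tells how the arrays were scanned, background-corrected, normalised or filtered, and intensities were not analysed here. The number of arrays limits the precision, and nothing says that arrays came from separate cultures.

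Probes were named by the platform annotation: 9202 had 1 symbol, 0 several and 1605 none, and 9194 matched RefSeq's R64 gene IDs, which gave systematic names and gene order. Probes of a gene were averaged in Python 3.11.15 (pandas 2.3.3). Genes were called at 2-fold. A probe was low signal within 0.001 of a log2 ratio of whole numbers up to 8, after the array's offset. That offset was the one putting most probes on such ratios. At 20 min another offset put 1739 probes there, against 1782, and under it MOB1 was on no tie. At 60 min these numbers were 1522 and 1533. Genes other than the members were not checked under the other offsets, so their ties depend on the one used. The code for the counts was run on simulated data with known answers, which checks the code and not the measurements. Members and lists were chosen with earlier results of these data known. Named were the members, GCR1, up to 4 genes per list farthest from 0 at 20 min (all of lists up to 6), the 8 nearest genes and the relatives. Others were named after their values were seen. No gene or probe sequence was used here, and some list members are not analysed here.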

Additional observations from a re-analysis of the deposited data

Results flagged for a closer look

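CLB1 and ALK1 lay on opposite sides of 0 before and after glucose, with each value beyond the 95% probe-pair difference of its array. CLB1 went from 0.41 at 0 min to -1.95 at 20 min and -2.12 at 60 min, differences of -2.36 and -2.54. ALK1 went from 0.45 to -2.14 and -1.37, differences of -2.59 and -1.82. After centring each array on its median, the 0 min values were 0.34 for CLB1 and 0.38 for ALK1, both under that array's 95% probe-pair difference of 0.405. Each time point was 1 array, so the differences were not tested.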

How the results depend on the processing

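Counts of 2-fold negative members at 0, 20 and 60 min stayed within 1.5 times of 0, 9 and 9 under thresholds of 1.5-fold and 3-fold, centring, equal spread, the highest or lowest probe per gene, CLB1 and CLB2 as 1 gene, low-signal genes left out and, an alternative chosen after seeing the data, MOB1 left out. At 60 min the count was 6 at 3-fold, against 5.29% of all genes, and 7 of 10 with equal spread, against 9.7%. At 20 min it was 10 at 1.5-fold, against 29% of all genes, and 9 at 3-fold, against 5.72%. Scaling the arrays to equal spread moved the medians to -1.54 at 20 min and -1.46 at 60 min, and the median differences to -1.58 (20 minus 0 min), -1.39 (60 minus 0 min) and 0.35 (60 minus 20 min), which follows from its construction. The mean over members at 60 min was -1.55. Moves were judged against the SD between probes of a pair. Of 76 values 70 stayed within these limits. The median at 0 min, 0.08 and within 2-fold, took the other sign without MOB1, at -0.04, and none of the medians beyond 2-fold changed sign. Under equal spread 6 of the 8 nearest genes stayed the same. The signs of small 60 minus 20 min medians turned with the scaling for the other CLB2 cluster genes (0.18 to -0.02), mitotic exit (0.14 to -0.02), spindle (0.06 to -0.11), bud neck (0.14 to -0.03) and M/G1 genes (0.08 to -0.08). The search for promoter motifs was not run, because no sequence was used here. No paired analysis was possible because each time point had 1 array.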

Other observations

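Genes next to the members on the chromosomes were 2-fold negative or positive at 20 min in shares near those of all genes. By gene order in the RefSeq annotation the 10 members had 20 adjacent protein-coding genes, of which 19 were measured. Their median was -0.09 at 20 min, when 3 were 2-fold negative and 2 positive (16.5% and 17.1% of all genes), and 0.14 at 60 min, when 1 was negative and 1 positive (13.6% and 16.2% of all genes). The 3 negative at 20 min, CDC15, ADE1 and EKI1, lie beside KIN3 and SWI5. CLB1 and CLB2 each lie beside the S-phase cyclin with which they form a convergent pair, and CLB6 and CLB5 had 0.33 and 0.21 at 20 min against -1.95 and -1.90. CDC15, a kinase gene of mitotic exit upstream of KIN3 on the same strand, had -1.06 at 20 min and -0.40 at 60 min, against -2.13 and -2.04 for KIN3, but its values at 0 and 20 min were those of low-signal ties. ADE1, a purine synthesis gene on the other side of KIN3, had -1.76 at 20 min and 0.58 at 60 min. EKI1, upstream of SWI5 on the opposite strand, had -1.49 and -0.70. ARO5, listed upstream of CDC20 on the same strand, had 4.57 at 20 min and 2.54 at 60 min while CDC20 had -2.64 and -1.92.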
